A study of Mus musculus with 14 samples.

Results

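Genes of the synaptic vesicle and its release machinery were followed through the differentiation of mouse embryonic stem (ES) cells into motor neurons and in newborn spinal tissue. The genes are *Snap25*, *Vamp2*, *Stx1a*, *Syt1*, *Syt4*, *Syp*, *Sv2a* and *Syn1*. They were chosen by name, and all 8 were found, by their RefSeq accessions, among the 23152 loci of each expression table. Every member had a nonzero FPKM in each of the 11 RNA-seq libraries. For *Syt1* the authors' comparison of KO with WT carries a status of not tested in ES cells and on day 2.

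The poly-A RNA-seq series holds C57BL/6 ES cells of the wild-type (WT) JM8 clone and of the Taf9b_BG10 clone (TAF9B -/-), and embryoid bodies (EBs) made from each at 2, 4 and 6 days. It also holds newborn spinal column tissue labelled WT and KO, and newborn WT spinal cord. TAF9B is a relative of the TFIID subunit TAF9. In the KO line, which is a single male clone, a LacZ-Neo cassette replaces coding exons of *Taf9b*. Both lines were differentiated with retinoic acid and a Sonic hedgehog pathway agonist (SAG). Spinal column came from the lumbar region of WT and KO littermates, and its libraries also held transcripts of muscle, cartilage and blood. TAF9B and RNA polymerase II (POL2) binding was mapped in EBs from another WT line, HBG3, which carries an *Mnx1* reporter, after 8 days of differentiation.

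Each condition has 1 library, so there is no spread between replicates and no difference below was tested. Expression is given as FPKM, which divides the fragments of a gene by transcript length and library size. The read depth behind it is unknown. *Taf9b* itself measured 0.537 FPKM in ES cells labelled WT and 3.06 FPKM in those labelled KO. EBs labelled KO also held more of it at every stage, for example 4.08 against 0.516 FPKM on day 2, which is the opposite of what the labels name. The reason was not tested. Spinal column held 6.65 FPKM under the WT label and 3.31 under the KO label. Directions between such libraries therefore refer to the labels. The day 6 EBs are labelled as motor neurons. All 9 neuronal marker genes examined were above 1 FPKM in the library labelled WT and 5 of 9 in the one labelled KO.

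Neurons release transmitter when a vesicle fuses with the plasma membrane. VAMP2 on the vesicle pairs with SNAP25 and STX1A (syntaxin) on the target membrane to form the SNARE complex that drives fusion. Synaptotagmins such as SYT1 sense the calcium that triggers it, SYP (synaptophysin) and SV2A are integral vesicle proteins, and SYN1 (synapsin I) tethers vesicles in reserve. Related SNAREs serve traffic in most other cells. Several genes of this kind carry an RE1, a DNA element bound by the repressor REST, which keeps neuronal genes low outside neurons.

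Sequence around the starts of these genes was read from mm9, the build of the peak lists. The RE1 consensus was searched as TTCAGCACC and GGACAGC with 2 free bases between, on both strands, allowing 2 mismatches among these 16 letters. The search was added after the peak positions had been seen. The sequences below are shown because they lie in a TAF9B peak or next to a start. In each, capitals mark the span of 18 bases that matched, given on the strand of the match.
Snap25, intron, 868 bp downstream of the start, chr2:136540068-136540097, + strand, 0 mismatches: tgacctTTCAGCACCGCGGACAGCgatccg
Snap25, intron, 818 bp downstream of the start, chr2:136540018-136540047, + strand, 2 mismatches: cgggagCTCAGCACCCTGGACAGGagtgct
Syp, exon, 24 bp downstream of one of its 4 annotated coding starts, chrX:7215857-7215886, + strand, 2 mismatches: acgcgcTCCAGCACCGTGGACAGAgcccgg
Syn1, 138 bp upstream of the start, chrX:20498253-20498282, - strand, 2 mismatches: gtcggaTTCAGCACCGCGGTCAGAgccttc

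Both *Snap25* matches lie inside the same TAF9B peak, on the same strand. The *Syp* and *Syn1* matches lie in no TAF9B peak. A further match, with 1 mismatch, is in an exon of *Syt4* 226 bp from its start and inside a TAF9B peak. *Vamp2*, *Stx1a*, *Syt1* and *Sv2a* had no match within 50 kb with up to 2 mismatches, which says only that these letters are not there. Of all 10415 TAF9B peaks, 41 (0.394%) held such a match, as did 0.151% of POL2 peaks and 0.124% of windows from 250 bases before to 50 after a start of a protein-coding gene. With 3 mismatches allowed the order turned around, at 0.922% of TAF9B and 1.73% of POL2 peaks. These regions differ in length, with a median width of 217 bases for TAF9B peaks and 686 for POL2 peaks. The shares are per region and were not scaled to length, so their order is no comparison per base. In the genome, 101 places matched without mismatch and 6 of them lie in a TAF9B peak, the *Snap25* intron among them. A match is a description of the letters, not of a bound site.

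The level of the release genes in libraries labelled WT was low until day 4 and higher on day 6. Summed over the 8 members it was 16.7 FPKM in ES cells, 24.9 on day 2, 22.2 on day 4, 82.3 on day 6 and 1064 in spinal cord. The highest member exceeded the lowest by 113-fold in ES cells, 229-fold on day 2, 32.6-fold on day 4, 19.3-fold on day 6 and 6.38-fold in spinal cord. *Vamp2* was the highest member in each of the 6 libraries labelled WT. *Syt1* was the lowest in 5 of them, and in spinal column *Stx1a* was. With 1 library each, neighbours in this order cannot be separated.

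**Figure D1:**
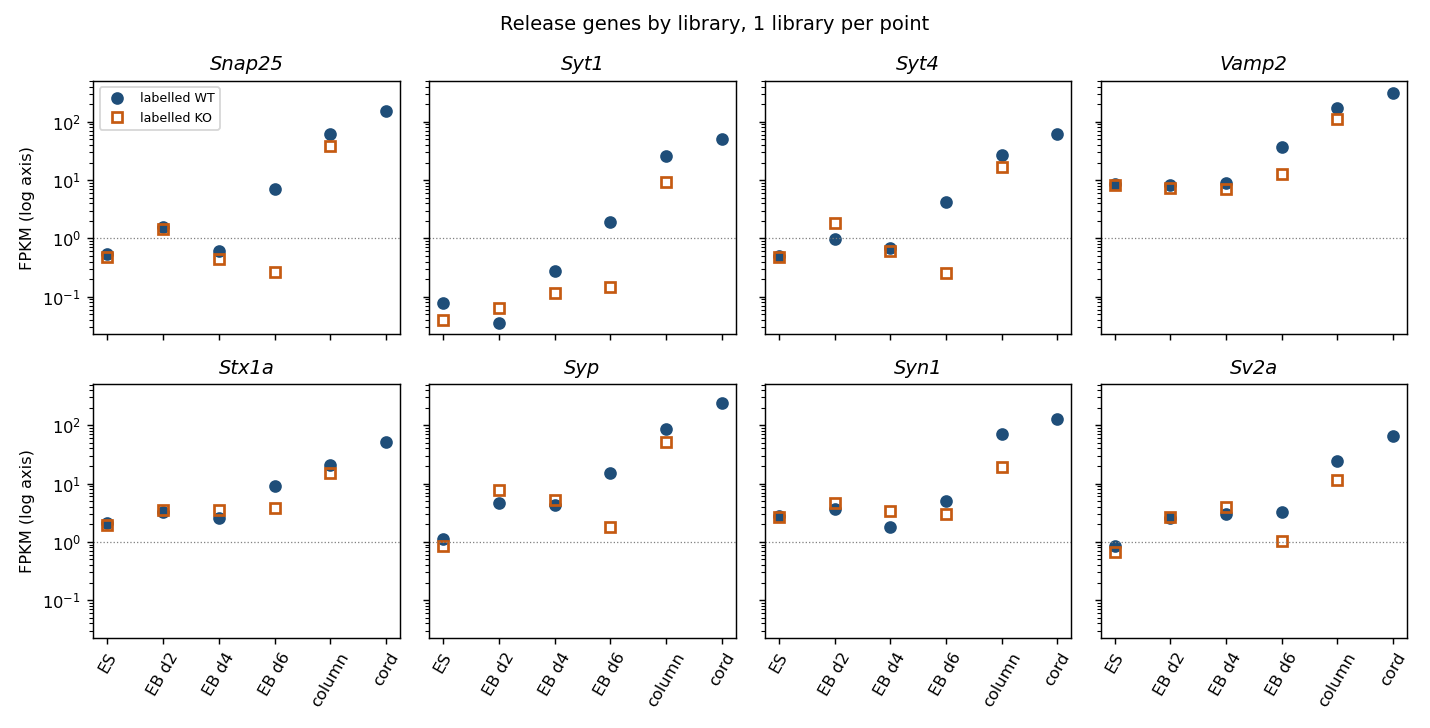
FPKM (log axis) of each member in the 11 libraries, with filled circles for libraries labelled WT and open squares for those labelled KO. The dotted line is 1 FPKM, and each point is 1 library. On day 6 the squares lie below the circles in every panel, from 0.261 against 7.08 FPKM for *Snap25* to 2.95 against 5.11 for *Syn1*.

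Among the SNARE genes, *Snap25* in libraries labelled WT was at 0.549 FPKM in ES cells, 1.56 on day 2, 0.618 on day 4 and 7.08 on day 6. It reached 62.3 in spinal column and 151 in spinal cord. In the libraries labelled KO it was at 0.473, 1.46, 0.448 and 0.261 FPKM in the same culture order, and at 39.0 in spinal column. The day 6 library labelled KO thus held the lowest *Snap25* value of all 11, and the partner library the highest of the cultures.

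*Vamp2* was never low. In cultures labelled WT it was at 8.68, 8.21, 8.98 and 36.3 FPKM from ES cells to day 6, and in cultures labelled KO at 8.24, 7.30, 7.03 and 12.6 FPKM. Spinal column held 173 FPKM in the library labelled WT and 112 in the one labelled KO, and spinal cord 318.

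*Stx1a* was at 2.14, 3.25, 2.61 and 8.96 FPKM in the cultures labelled WT and at 1.93, 3.47, 3.45 and 3.78 in those labelled KO. Spinal column gave 20.5 and 14.9 FPKM in the libraries labelled WT and KO, and spinal cord 51.1. Of the 3 SNARE genes it was the lowest in spinal cord, although it exceeded *Snap25* in each culture labelled WT.

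The calcium sensor gene *Syt1* was the scarcest member in every culture library. *Syt1*, which encodes the sensor for fast release, was at 0.0771, 0.0359, 0.275 and 1.88 FPKM in the cultures labelled WT. In those labelled KO it was at 0.0398, 0.0630, 0.115 and 0.145 FPKM, so that only the day 6 library labelled WT exceeded 1 FPKM. Spinal column held 26.3 FPKM in the library labelled WT and 9.18 in the one labelled KO, and spinal cord 49.8.

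*Syt4*, whose protein lacks normal calcium binding in one of its domains, was at 0.507, 0.994, 0.678 and 4.26 FPKM in the cultures labelled WT. It was at 0.482, 1.86, 0.613 and 0.256 FPKM in those labelled KO. Spinal column gave 26.6 and 16.5 FPKM in the libraries labelled WT and KO, and spinal cord 60.8. As for *Snap25*, the day 6 library labelled KO had the lowest value of the 11.

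The vesicle membrane genes were already above their ES cell level on day 2. *Syp* was at 1.13, 4.59, 4.28 and 15.4 FPKM in the cultures labelled WT and at 0.856, 7.66, 5.27 and 1.79 in those labelled KO. Its values in spinal column were 85.9 FPKM in the library labelled WT and 50.7 in the one labelled KO, and it reached 238 in spinal cord.

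*Sv2a* was at 0.849, 2.57, 3.01 and 3.30 FPKM in the cultures labelled WT and at 0.675, 2.62, 3.98 and 1.03 in those labelled KO. It was at 24.5 and 11.7 FPKM in spinal column labelled WT and KO, and at 66.5 in spinal cord. Its values on days 2, 4 and 6 in libraries labelled WT lay close together, unlike those of the other members.

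*Syn1* was at 2.74, 3.69, 1.77 and 5.11 FPKM in the cultures labelled WT and at 2.72, 4.63, 3.35 and 2.95 in those labelled KO. Spinal column held 69.7 FPKM in the library labelled WT and 19.6 in the one labelled KO, and spinal cord 129. The tables place *Syn1* in a locus merged with *Araf* and *Timp1*. On chromosome X *Syn1* reaches down to 20437637 and *Araf* up to 20437645, so they overlap by a few bases. Exons of *Timp1* overlap those of *Syn1* by 0 bases. A small part of the reads of *Syn1* could thus be shared.

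To see when the genes came up, libraries labelled WT were compared along the time course. Ratios are log2 ratios of FPKM without a pseudocount, and a locus was counted where either library compared exceeded 1 FPKM. From ES cells to day 2, *Syp* (2.03), *Sv2a* (1.60) and *Snap25* (2.84-fold) were more than 2-fold higher, that is 3 members, against 5.26% of all loci. Adding 1 FPKM, or requiring it in both libraries, left 1. From day 2 to day 4, *Snap25* (-1.33) and *Syn1* were more than 2-fold lower, that is 2 members, against 13.8% of loci. Adding 1 FPKM to each value left 0 of these, and requiring 1 FPKM in both libraries left 1. From day 4 to day 6, 7 of 8 members were more than 2-fold higher, against 17.0% of loci. These ran from 1.53 for *Syn1* to 3.52 for *Snap25*, with *Sv2a* at 0.13. Requiring 1 FPKM in both libraries left 4. Over that step all 9 neuronal markers were more than 2-fold higher (36.8 and 1078 FPKM summed). So were 6 of 6 pluripotency markers (108 and 1368 FPKM) and 4 of 5 simple epithelium markers (76.2 and 186 FPKM). Of 6 neural progenitor markers 4 were lower and 1 was higher. The part of these cells in the members' rise was not tested.

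Between ES cells and day 6, 7 of 8 members were more than 2-fold higher, against 23.2% of loci, and the exception was *Syn1* at 0.90. With 1 FPKM required in both libraries 3 members were counted, since 4 were below it in ES cells. The largest ratio was that of *Syt1*, at 4.60, from an ES cell level of 0.0771 FPKM. The median of the 8 members was 2.57 and that of all loci 0.20. Adding 1 FPKM to each value brought the members' median to 1.73.

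In the libraries labelled KO the same steps looked different. From day 4 to day 6, *Syp* (-1.56) and *Sv2a* (-1.95) were more than 2-fold lower, that is 2 members, against 11.1% of loci, and none was more than 2-fold higher. *Syt4* was at -1.26 between values that were both below 1 FPKM. Over that step 6 of 6 pluripotency markers (799 and 3966 FPKM summed) and 3 of 5 simple epithelium markers (408 and 1256 FPKM) were more than 2-fold higher. Of 6 neural progenitor markers 4 were lower (69.7 and 20.3 FPKM). Of the 6 neuronal markers above 1 FPKM 3 were higher and 1 was lower. Their part in the members' values was not examined. From ES cells to day 6, *Syp* (1.07) alone passed 2-fold upward, against 16.9% of loci. Centring on all loci, or adding 0.1 FPKM, took this single member below 2-fold. The median of the 8 members over this interval was 0.61 and that of all loci 0.15. Whether the time courses differ between labels was not tested.

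The library labelled KO was compared with the one labelled WT at each stage. In ES cells none of the 8 members was more than 2-fold apart among the 4 above 1 FPKM, against 1.13% of loci either way. The log2 ratio ran from -0.95 for *Syt1*, which was near 0 in both libraries, to -0.01 for *Syn1*. On day 2 none passed 2-fold, against 2.56% of loci. *Syt4* (0.90) and *Syp* (0.74) were higher in the library labelled KO there. On day 4 none of those above 1 FPKM passed 2-fold, against 16.5% of loci, and *Syn1* was at 0.92. The medians of the 8 members were -0.18, 0.21 and 0.08 at these stages.

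**Figure D2:**
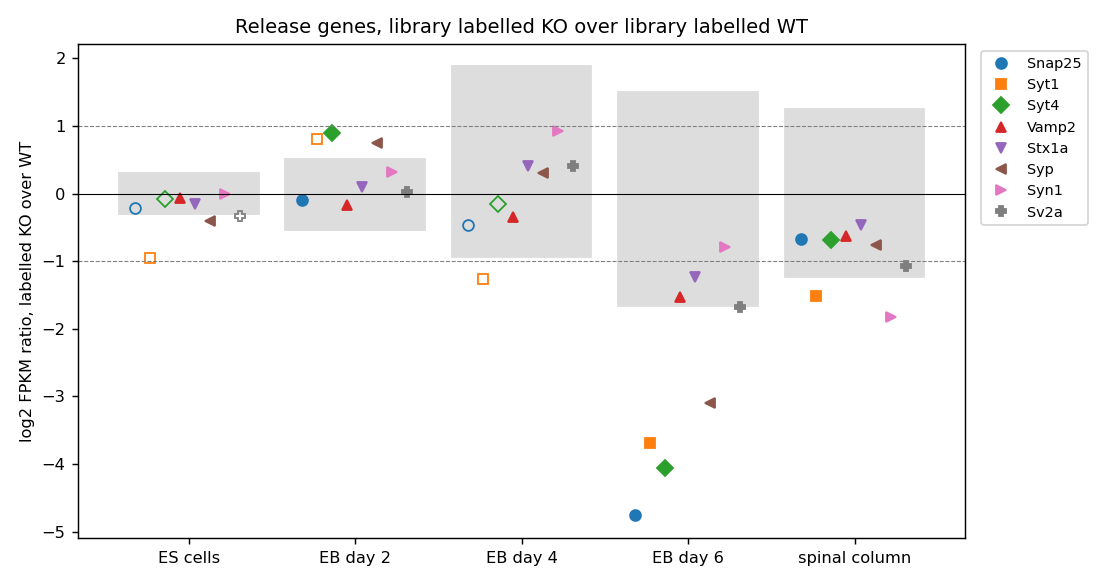
Log2 FPKM ratio, KO label over WT label, for each member in 5 comparisons; open symbols are members at or below 1 FPKM in both libraries. Grey boxes span percentiles 5 to 95 of all loci tested and dashed lines mark 2-fold. On day 6 *Snap25*, *Syt4*, *Syt1*, *Syp* and *Sv2a* lie below the box, whose lower edge is -1.66; in spinal column *Syn1* and *Syt1* lie below an edge of -1.24.

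On day 6, 7 of 8 members were more than 2-fold lower in the library labelled KO, against 9.91% of loci. *Snap25* (-4.76), *Syt4* (-4.06), *Syt1* (-3.69) and *Syp* (-3.10) stood furthest down. *Sv2a* (-1.68), *Vamp2* (-1.53) and *Stx1a* (-1.24) followed, and *Syn1* was at -0.79. With 1 FPKM required in both libraries 4 members were counted, since *Snap25*, *Syt4* and *Syt1* were below it in the library labelled KO. The median of the 8 members was -2.39, whereas 1286 loci were lower and 1367 higher by 2-fold over the whole table. With 1 FPKM added to each value the median was -1.39. The percentage of tested loci with a lower ratio was 0.601 for *Snap25*, 5.65 for *Vamp2* and 13.2 for *Syn1*.

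Markers of other cells moved with this difference. All 9 neuronal markers were more than 2-fold lower in the day 6 library labelled KO, and their summed level was 1078 FPKM in the library labelled WT and 139 in the one labelled KO. All 6 neural progenitor markers were lower as well (112 and 20.3 FPKM summed). Of 6 pluripotency markers 5 were more than 2-fold higher (1368 and 3966 FPKM), as were 5 of 5 keratin and *Epcam* markers of simple epithelium (186 and 1256 FPKM). Their part in the members' values was not tested. In such bulk samples fewer neurons and less RNA per neuron cannot be told apart.

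The members were also set against the neuronal markers within each library. On day 6 the geometric mean of the 9 markers was 44.7 FPKM in the library labelled WT and 3.24 in the one labelled KO. The log2 level of the members over that mean had a median of -2.90 in the library labelled WT and -1.25 in the one labelled KO. For *Snap25* it was -2.66 and -3.64, and for *Vamp2* -0.30 and 1.95. The median was -0.51 in spinal cord, above that of the day 6 EBs labelled WT. Earlier cultures labelled WT were above it too, at -0.92 in ES cells, 0.62 on day 2 and -0.25 on day 4. Their marker means were only 1.86, 1.88 and 2.57 FPKM. A higher median thus does not mean more neuronal expression.

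In newborn spinal column, 3 members were more than 2-fold lower in the library labelled KO, against 8.51% of loci. These were *Syn1* (-1.83), *Syt1* (-1.52) and *Sv2a* (-1.07). The other 5 lay between -0.76 for *Syp* and -0.46 for *Stx1a*, so all 8 ratios were below 0. The median was -0.73 and that of all loci 0.06. At 1.5-fold 7 members passed, and at 4-fold 0.

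Spinal column is a mixture, and other markers differed between its libraries too. Of the 8 neuronal markers with a usable status 6 were more than 2-fold lower in the library labelled KO, and their sum was 1057 FPKM in the library labelled WT and 582 in the other. Neutrophil markers were more than 2-fold higher for 4 of 5 (569 and 1218 FPKM summed), and simple epithelium markers for 4 of 5 (7.50 and 23.1 FPKM). The 4 astrocyte markers had a median ratio of -0.68 and sums of 82.1 and 49.5 FPKM, and 1 of them was past 2-fold. Of 6 skeletal muscle markers 3 could not be compared, being listed at 0 in at least 1 library with a status for too many fragments. The members' median level relative to the neuronal markers was -0.57 in the library labelled WT and -0.60 in the one labelled KO. That mean was taken over all 9 markers, *Dcx* included, although its comparison in spinal column has a failed status. The part of this mixture in the members' ratios was not tested.

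Spinal cord gave the highest value of every member. Against ES cells, listed in the same table, 8 of 8 members were more than 2-fold higher, against 30.5% of loci, and 4 where both libraries had to exceed 1 FPKM. The ratio ran from 4.45 for *Stx1a* to 9.21 for *Syt1*, and the median was 6.47 beside -0.26 for all loci. Against day 6 EBs labelled WT, 8 of 8 were again more than 2-fold higher, against 26.1% of loci. Here *Syt1* (4.73) and *Syn1* (4.66) stood highest and *Stx1a* (2.51) lowest. Relative to spinal cord, spinal column labelled WT was more than 2-fold lower for 5 members, against 16.0% of loci, with all 8 ratios between -1.47 for *Syp* and -0.88 for *Vamp2*.

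A pair of related genes within a library gives a ratio that library size cannot change. SNAP23, VAMP3, STX4 and the synaptophysin-like protein SYPL serve membrane traffic in most cells. In ES cells labelled WT, *Snap25* was 0.0242 times the level of *Snap23*, at 0.549 against 22.7 FPKM. In spinal cord it was 45.9 times that level, at 151 against 3.29 FPKM. *Snap23* itself ranged only from 22.7 to 25.8 FPKM over the 8 culture libraries. The other paralogs varied more there, *Vamp3* from 35.2 to 80.2, *Stx4a* from 15.2 to 46.9 and *Sypl* from 12.6 to 27.8 FPKM.

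**Figure D3:**
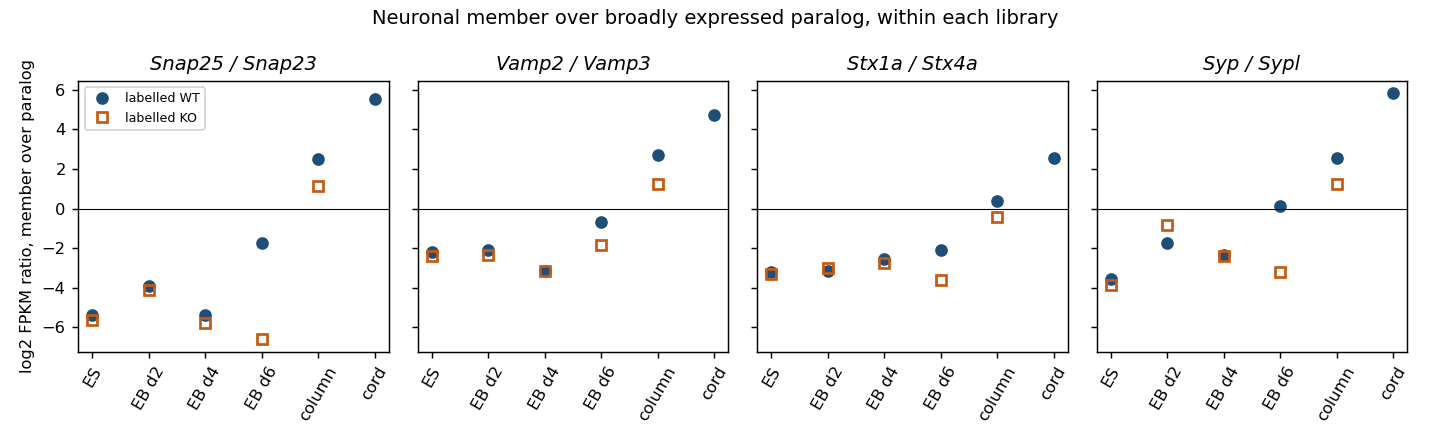
Log2 FPKM ratio of 4 members over a broadly expressed paralog within each library, with filled circles for libraries labelled WT and open squares for those labelled KO. Values above 0 mean that the neuronal gene is the higher. For *Snap25* over *Snap23* the circles run from -5.37 in ES cells to 5.52 in spinal cord, and the day 6 square is at -6.60.

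The log2 ratio of *Snap25* over *Snap23* was -1.72 on day 6 in the library labelled WT and -6.60 in the one labelled KO. *Vamp2* over *Vamp3* was at -0.67 and -1.85 there, *Stx1a* over *Stx4a* at -2.07 and -3.63, and *Syp* over *Sypl* at 0.13 and -3.20. Of the 4 pairs, *Syp* alone exceeded its paralog in a day 6 culture, the one labelled WT. In spinal cord all 4 neuronal genes were the higher, with ratios from 2.56 for *Stx1a* to 5.82 for *Syp*. In spinal column the ratios were 2.51, 2.69, 0.38 and 2.56 in the library labelled WT and 1.15, 1.25, -0.45 and 1.26 in the one labelled KO, in the same order of pairs. Of 9 broadly expressed paralogs 8 were more than 2-fold lower in spinal cord than in day 6 EBs, where 4873 of all 14212 loci were. In the day 6 library labelled KO against WT none of the 9 was lower and 1, *Stx3* (1.33), was higher.

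The rest of the vesicle cycle was described from a list of 55 genes, of which 54 were found. On day 6, under the KO label 13 were lower by more than 2-fold and 1 was higher, with 38 above 1 FPKM in at least 1 library and a median of -0.38. Of the 32 above it in both libraries 8 were lower and 1 was higher, with a median of -0.19. Over all 12973 loci 9.91% were lower and 1367 loci were higher. Among regulators of fusion *Cplx1* (complexin 1, 5.26 FPKM labelled WT and 0.299 labelled KO) had a log2 ratio of -4.14. *Nsf*, which encodes the ATPase that takes used SNARE complexes apart, stood at the other end of that group (0.29). Among synaptotagmin and *Doc2* genes *Syt11* was at -2.92 and *Syt9* at 0.96. Among vesicle membrane proteins *Synpr* was at -2.18 and *Syngr1* at 1.02, the only gene of the list more than 2-fold higher.

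**Figure D4:**
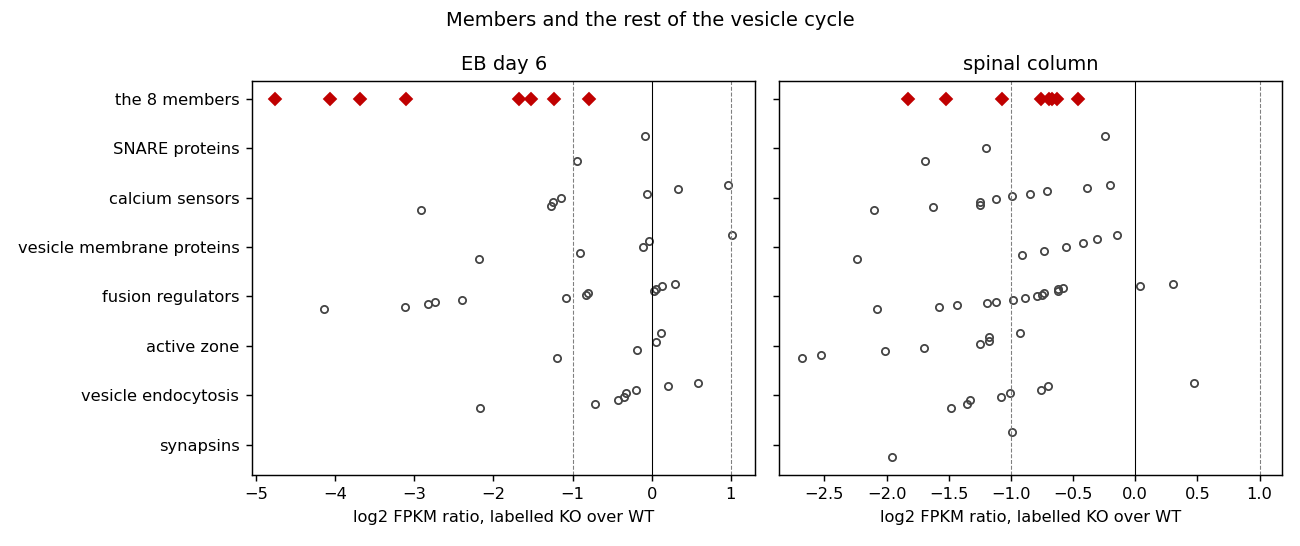
Log2 FPKM ratio, KO label over WT label, on day 6 and in spinal column, for the 8 members (diamonds) and the other vesicle cycle genes that exceeded 1 FPKM in either library (circles, by group, spread vertically for legibility). Dashed lines mark 2-fold, and the horizontal scales differ. The group named calcium sensors holds synaptotagmin and *Doc2* genes, whether or not each binds calcium. The members' median is -2.39 on day 6 and -0.73 in spinal column, and that of the other genes -0.38 and -0.99.

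In vesicle endocytosis on day 6, *Snap91*, a clathrin adaptor gene, was at -2.17 and *Sh3gl2*, for endophilin, at 0.59. Of the active zone genes, which organise the release site, *Ppfia3* was at -1.19 and *Rims3* at 0.12. *Snap47*, another SNARE gene, was at -0.08. *Syn2* and *Syn3* were below 1 FPKM in both libraries.

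In spinal column, 26 of the 54 genes were lower by more than 2-fold under the KO label and 0 were higher, with a median of -0.99 over the 53 above 1 FPKM in at least 1 library. Over the 47 above it in both, 21 were lower and 0 higher. Over all 14188 loci 8.51% were lower and 1288 loci were higher. Of the active zone genes 7 of 8 were more than 2-fold lower, and *Bsn* (bassoon) was at -2.68 and *Rims3* at -0.93. Of these 8 genes 4, *Bsn* among them, were below 1 FPKM in the library labelled KO and were counted through the other library. *Syn3* was at -1.96 and *Syn2* at -0.99. In fusion regulators *Unc13a* was at -2.08 and *Napa* at 0.30. In vesicle endocytosis *Synj1* was at -1.48 and *Bin1*, which muscle also expresses strongly, at 0.47. *Sv2c* (-2.24) and *Synpr* (-0.15) were the ends of the vesicle membrane group, and *Syt2* (-2.10) and *Syt12* (-0.20) those of the synaptotagmin and *Doc2* genes. Of the 3 other SNARE genes 2 were more than 2-fold lower, *Vamp1* (-1.20) among them, and *Snap47* was at -0.24.

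Along the time course labelled WT, 17 of the 54 genes were more than 2-fold higher on day 6 than in ES cells and 1 lower, *Sh3gl2*, with 38 above 1 FPKM in at least 1 library. Where both had to exceed it, 33 were left, of which 12 were higher and 1 lower. Over all 13002 loci 23.2% were higher and 1956 loci lower. From day 6 to spinal cord, 46 were more than 2-fold higher and 1 lower, *Unc13b* (-1.20), with 53 above 1 FPKM in at least 1 library, and 15 of these through spinal cord alone. With both libraries above it, 31 of 38 were higher and 1 lower, and the median was 2.25 instead of 3.12. Over all 14212 loci 26.1% were higher and 4873 loci lower. *Rph3a*, for a RAB3 effector, went from 0.0661 to 28.6 FPKM and *Sv2c* from 0.0330 to 14.1 FPKM over that step. *Vamp1* went from 0.289 to 63.4 FPKM, whereas its relative *Vamp2* was already at 36.3 FPKM on day 6.

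*Rest*, which encodes the repressor that binds the RE1, was at 35.8 FPKM in ES cells labelled WT, 13.2 on day 2, 4.58 on day 4 and 2.63 on day 6. In the libraries labelled KO it was at 34.8, 13.4, 10.7 and 6.54 FPKM. It measured 1.99 FPKM in spinal column labelled WT, with a log2 ratio of -0.41 for KO over WT there, and 1.21 FPKM in spinal cord. On days 4 and 6 *Rest* was thus the higher under the KO label, by 1.32 on the log2 scale on day 6.

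The genes closest in pattern were sought among 15822 loci by Pearson's r, over the 11 libraries, with the mean standardised log2(FPKM + 1) profile of the members. The highest 10 were *Vstm2l*, *Rbfox3*, *Brinp2*, *Sez6l2*, *Ackr1*, *Scg2*, *Cdk5r2*, *Sncb*, *Atp6v1g2* and *Nap1l2*, with r from 0.992 to 0.995. *Rbfox3* encodes the neuronal nuclear antigen NeuN, *Sncb* beta-synuclein and *Scg2* a granin of dense-core vesicles. The members themselves had r from 0.969 for *Sv2a* to 0.994 for *Syt4*. Each member is part of the mean it was set against, so these values are high by construction. Each of the 10 was highest in spinal cord, and 4 of them were found again with 0.1 FPKM added in place of 1.

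Binding was compared at the starts of the members in 8-day EBs. There were 10415 TAF9B and 8620 POL2 peaks, from 1 library each. A TAF9B peak lay within 500 bp of a start for 2 members, *Syt1* and *Syt4*, and for 20.8% of 17775 protein-coding genes. A POL2 peak lay that close for *Syt1* and *Vamp2*, against 34.4% of genes. Among genes above 1 FPKM in day 6 EBs labelled WT the shares were 31.3% for TAF9B and 56.0% for POL2. Within 50 kb, 5 members had a TAF9B peak, against 55.6% of genes, and 5 had a POL2 peak, against 57.5%. Of the expressed genes 69.2% and 77.6% had such a peak within 50 kb. All 8 members were above 1 FPKM in day 6 EBs labelled WT. Their TAF9B counts, 2 and 5 of 8, are near the expressed-gene shares, and at 10 kb 4 of 8 members had a TAF9B peak against 44.2% of expressed genes. For POL2 at the start 2 of 8 stood against 56.0%.

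**Figure D5:**
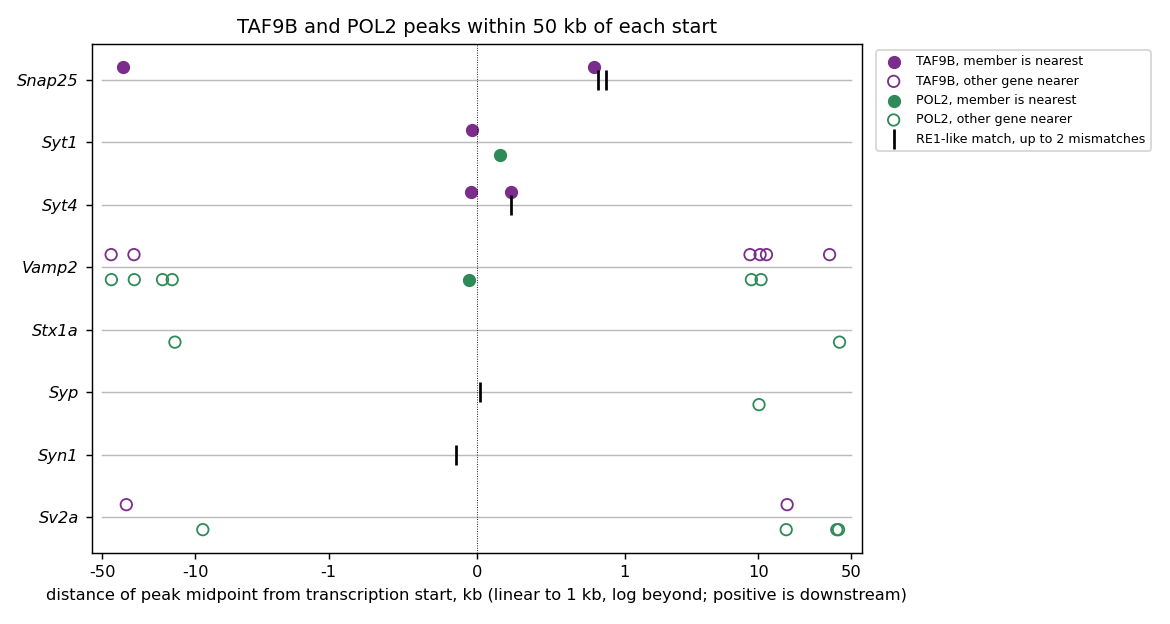
Midpoints of TAF9B and POL2 peaks by distance from the start of each member, in kb, downstream to the right (linear to 1 kb and logarithmic beyond). Filled circles are peaks to which the member is the nearest protein-coding gene, open circles peaks nearer to another gene, and bars RE1-like matches. *Snap25* and *Syt4* have TAF9B peaks and no POL2 peak, *Syt1* has both at its start, and *Vamp2* has POL2 alone there.

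*Snap25* (chr2:136539189-136608164, + strand) had a TAF9B peak at chr2:136539777-136540221, 0.79 kb downstream of its start in an intron. Its MACS score of 240 was higher than that of 94.9% of TAF9B peaks, whose median was 83.3. It held both RE1-like matches shown above. Another TAF9B peak, with a score of 106, lay 34.66 kb upstream. No POL2 peak was listed within 50 kb, the nearest being at 177.82 kb. The stretch of the intronic peak around the match without mismatches is shown, on the + strand with the match in capitals.
Snap25, chr2:136540014-136540151: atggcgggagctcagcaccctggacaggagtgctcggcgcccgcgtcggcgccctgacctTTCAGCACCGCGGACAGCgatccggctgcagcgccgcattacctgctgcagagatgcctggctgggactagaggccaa

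*Syt1* (chr10:107934706-108448038, - strand) had the strongest TAF9B peak among those nearest to a member, at chr10:108447905-108448221 with a score of 309, above 98.1% of peaks. Its midpoint lay 25 bp upstream of the start, and it overlapped a POL2 peak with a score of 148. It held no RE1-like match. The part of the peak upstream of the start is shown on the gene's strand, because it is the one place among these genes where TAF9B and POL2 were both called at the start.
Syt1, chr10:108448039-108448221: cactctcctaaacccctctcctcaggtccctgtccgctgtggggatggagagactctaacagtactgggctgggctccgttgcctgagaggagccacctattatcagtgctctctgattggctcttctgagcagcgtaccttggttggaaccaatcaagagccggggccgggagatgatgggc

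*Vamp2* had a POL2 peak 46 bp from its start with a score of 96.8 and no TAF9B peak there. The 6 TAF9B peaks within 50 kb of it each lay nearer to another gene, 3 of them to the circadian gene *Per1*. Both TAF9B peaks near *Sv2a* were likewise closer to others, *Mtmr11* and *Bola1*.

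*Syt4* carried 2 weaker TAF9B peaks, with scores of 71.7 and 58.9, 234 bp downstream and 43 bp upstream of its start. The downstream one holds its RE1-like match. The nearest POL2 peak was 162.55 kb away. The nearest TAF9B peak to *Stx1a* was at 83.34 kb, to *Syn1* at 262.61 kb and to *Syp* at 462.59 kb. In all, 13 TAF9B peaks lay within 50 kb of a member and 5 of them had the member as their nearest gene, while 6 overlapped a POL2 peak.

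The share of TAF9B peaks with an RE1-like match depended on the mismatches allowed. Of 6946 TAF9B peaks without an overlapping POL2 peak 0.547% held a match with up to 2 mismatches, and of 3469 with one 0.0865%. With 1 mismatch allowed the shares were 0.317% and 0.0577%, with none 0.0576% (4 peaks) and 0.0577% (2 peaks), and with 3 they were 0.893% and 0.980%. The shares thus lay apart at 1 and 2 mismatches and close together at 0 and 3. The *Snap25* and *Syt4* peaks that hold a match do not overlap a POL2 peak. Any relation between matches, peaks and expression was not tested.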

How the data were processed

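The authors mapped poly-A RNA-seq reads to RefSeq genes with TopHat and deposited FPKM values from Cuffdiff in 6 tables, each normalized separately, with 2 libraries per table. The ES cell library labelled WT is in 2 of them and differs by a factor of 1.09. The deposited fold changes and p-values are the authors' own comparisons and were not used. ChIP reads were mapped to mm9 with Bowtie, and the peak score is the MACS score as deposited. Versions are not given in the sources used here. An IgG control library was not used here. Depth is unknown.

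Loci were joined by accession and position, and symbols came from RefSeq (GRCm38.p6, names only). Loci with a failed Cuffdiff status were left out. A locus above 1 FPKM in at least 1 library counted as changed past 2-fold, and the groups are those of the labels. Starts came from the GENCODE vM1 annotation of mm9, and peak midpoints within 500 bp or 50 kb were assigned. Overlap was at least 1 bp. The 8 members were always named, with the highest and lowest gene of each list group, the paralogs, *Rest* and *Taf9b*, and the 10 genes nearest in pattern. The value of 1 gene of these lists is not reported here by itself. Members and lists were chosen with earlier results of these data known. Counting was tested on simulated data. Python 3.11.15 with numpy 2.4.6 and pandas 2.3.3 was used.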

Additional observations from a re-analysis of the deposited data

Results flagged for a closer look

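Where one or both libraries of a pair exceeded 1 FPKM at the stage, there were 3 members for which the library labelled KO lay above its partner by more than 1.5-fold at one stage and below it by more than 1.5-fold at another. *Syt4* had a log2 ratio of 0.90 on day 2 and -4.06 on day 6. *Syp* was at 0.74 on day 2 and -3.10 on day 6. *Syn1* was at 0.92 on day 4 and -1.83 in spinal column. *Syt1* showed such a change with a day 2 ratio below that filter: it was at 0.0630 FPKM in the day 2 library labelled KO and 0.0359 in the one labelled WT, and had a log2 ratio of -3.69 on day 6. With 1 library per condition, the difference between stages was not tested.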

How the results depend on the processing

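No paired analysis was possible because the groups compared at a stage hold 1 library each, and for the same reason none could be left out of a comparison. A fit of KO over WT across all stages, with the stages taken as replicates, was not run. The counts of the other vesicle cycle genes with 1 FPKM required in both libraries were added after the data had been seen. The depth behind each FPKM value is unknown, so members near 0 in both libraries, such as *Syt1* before day 6, carry an error that cannot be given. The search for RE1-like matches was chosen after seeing the data: 2 members had a match with up to 1 mismatch, 4 with up to 2 and 6 with up to 3.

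The counts of members past the fold depended on the fold and on the filter. With a 1.5-fold limit they were 2 on day 2, 1 on day 4 and 7 in spinal column for libraries labelled KO against WT, 4 for day 6 against ES cells labelled KO, and 8 for spinal column against cord. With a 4-fold limit they were 4 on day 6 and 0 in spinal column for KO against WT. Along the course labelled WT that limit left 1 (day 2 over ES cells), 0 (day 4 over day 2) and 4 (day 6 over day 4), and it left 0 for both steps labelled KO and for column over cord. Requiring 1 FPKM in both libraries left 4 on day 6 for KO against WT. Elsewhere it left 1 (day 2 over ES cells), 1 (day 4 over day 2), 4 (day 6 over day 4), 3 (day 6 over ES cells), 0 (day 6 over ES cells labelled KO) and 4 (cord over ES cells). Without a filter there was 1 on day 4 for KO against WT and 2 for day 6 over ES cells labelled KO. Adding 1 FPKM left 1 (day 2 over ES cells), 0 (day 4 over day 2) and 0 (day 6 over ES cells labelled KO), and adding 0.1 FPKM or centring on all loci left 0 for the last. Among peaks above the median score, 1 member had TAF9B and 1 had POL2 at a start, and 3 had TAF9B within 50 kb. Within 10 kb, 3 had POL2. The other 82 of these counts stayed within 1.5 times the value reported. Counts of members past a fold add lower and higher ones, so they cannot show a change of direction. No median of the members changed sign. The members' median over ES cells in spinal cord was 5.22 with 1 FPKM added.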
